A study of Mus musculus with 292 samples.

Results

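The 40 genes described here encode nuclear receptors other than the REV-ERB and ROR receptors of the circadian clock, chosen by symbol. All 40 were found in the count tables, among 48795 gene identifiers. They fall into steroid receptors (Esr1, Esr2, Nr3c1, Nr3c2, Pgr), oestrogen-related receptors (Esrra, Esrrb, Esrrg), and receptors for thyroid hormone, retinoic acid and vitamin D (Thra, Thrb, Rara, Rarb, Rarg, Vdr). Further members are the retinoid X receptors (Rxra, Rxrb, Rxrg) and the sensors of fatty acids, oxysterols, bile acids and foreign compounds (Ppara, Ppard, Pparg, Nr1h2, Nr1h3, Nr1h4, Nr1i2, Nr1i3). The rest are orphan receptors (Hnf4a, Hnf4g, Nr0b2, Nr5a1, Nr5a2, Nr2c1, Nr2c2, Nr2e1, Nr2e3, Nr2f1, Nr2f2, Nr2f6, Nr6a1) and the activity-induced Nr4a2 and Nr4a3.

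Nuclear receptors are transcription factors that bind DNA through zinc fingers and, in most cases, change their activity when a small lipophilic ligand enters a pocket of the protein. Many bind as heterodimers with a retinoid X receptor on repeats of a hexamer close to AGGTCA, and they switch between corepressors and coactivators. In liver they are known for the control of fat oxidation, bile acid synthesis and drug metabolism, and in brain they carry responses to glucocorticoids, thyroid hormone, oestrogens and retinoids.

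Messenger RNA was sequenced from 3 brain regions, the right hemisphere's cortex, the striatum and the hypothalamus, and from liver. All mice were C57BL/6J males, wild type and 26 weeks old, with no treatment named. They were taken every 3 h over 36 h, so that 13 time points make 8 groups of zeitgeber time, or ZT, which by convention counts hours from lights-on. The libraries number 78 for cortex, 60 for striatum, 77 for hypothalamus and 77 for liver, each from a mouse of its own within a tissue, and 79 mouse codes occur in all. A ZT group held 6 to 12 libraries, and in striatum 2 at ZT15, 4 at ZT18 and up to 11 at other times.

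In megacounts, library totals ran from 28.3 to 40.5 for cortex, 11.7 to 43.4 for striatum, 29.2 to 50.01 for hypothalamus and 11.7 to 41.9 for liver. Hepatocyte markers (Alb, Apoa1, Cps1, Tat) summed to 64481 CPM or more in every liver library and to at most 104 in any brain library. A library that stood apart from its tissue was present at ZT0 (replicate 1) and ZT9 (replicate 9) in cortex, at ZT3 (5) and ZT21 (3) in striatum, at ZT0 (9) and ZT9 (9) in hypothalamus and at ZT18 (4) in liver. Of the expressed members, 13 and 16 of 30 in the cortex libraries and 16 of 31 in the liver library lay outside the range of all other libraries of the tissue. In striatum it was 5 and 12 of 32, and in hypothalamus 6 and 6 of 33. CPM is the count per megacount of the library total times its TMM factor, taken within the tissue. Counts of members are given with and without these 7 libraries.

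Most of the receptors were read in every tissue. At a mean of 0.5 CPM or more, 31 members were expressed in liver, 33 in hypothalamus, 32 in striatum and 30 in cortex, and 25 of these in all 4. Hnf4a, Nr0b2, Nr1h4 and Nr1i2, receptors of bile acid and liver-specific gene control, passed in liver alone, and Nr5a1, which marks neurons of the ventromedial hypothalamus, passed in hypothalamus alone. Nr2e1, Nr4a2, Nr4a3, Pgr and Vdr passed in the 3 brain regions and not in liver. Nr5a2 passed in hypothalamus and liver, Esr2 in striatum and hypothalamus, and Nr1i3 in striatum and liver. In striatum Nr1i3 passed narrowly, at a mean of 0.527 CPM (0 to 1.36), beside 0.367 in cortex. Its exonic bases are shared to 74.9% with Tomm40l on the opposite strand, so its reading in striatum is uncertain. Hnf4g and Nr2e3 passed nowhere. In bulk tissue, fewer cells of a type and less RNA per cell cannot be told apart.

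Levels of different genes were set side by side as FPKM, which divides by the length of the gene model. Thra, the gene of thyroid hormone receptor alpha, was the highest member in each brain region, with a median of 116 FPKM in cortex (98.4 to 148 over 78 libraries), 111 in hypothalamus (93.1 to 133 over 77) and 104 in striatum (53.9 to 134 over 60). In liver its median was 2.50 FPKM (0.834 to 4.48). Hnf4a, a master regulator of hepatocyte genes, led in liver with a median of 116 FPKM (25.9 to 166). It was followed in liver by Rxra, the common heterodimer partner, at 69.4 FPKM, the bile acid receptor Nr1h4 at 64.9 and the xenobiotic sensor Nr1i3 at 61.8. Rxra was at 5.86 FPKM in cortex, 7.002 in striatum and 10.2 in hypothalamus.

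The glucocorticoid receptor Nr3c1 ranked second in cortex (20.2 FPKM) and hypothalamus (13.3), and had 11.8 FPKM in striatum and 11.4 in liver. In striatum Thra was followed by Rxrg (17.7 FPKM) and Rarb (17.2), receptors of retinoid signalling in striatal neurons. The lowest expressed members were Vdr, the vitamin D receptor, in cortex (0.087 FPKM) and hypothalamus (0.152), Nr1i3 in striatum (0.114) and Esrrb in liver (0.121).

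**Figure D1:**
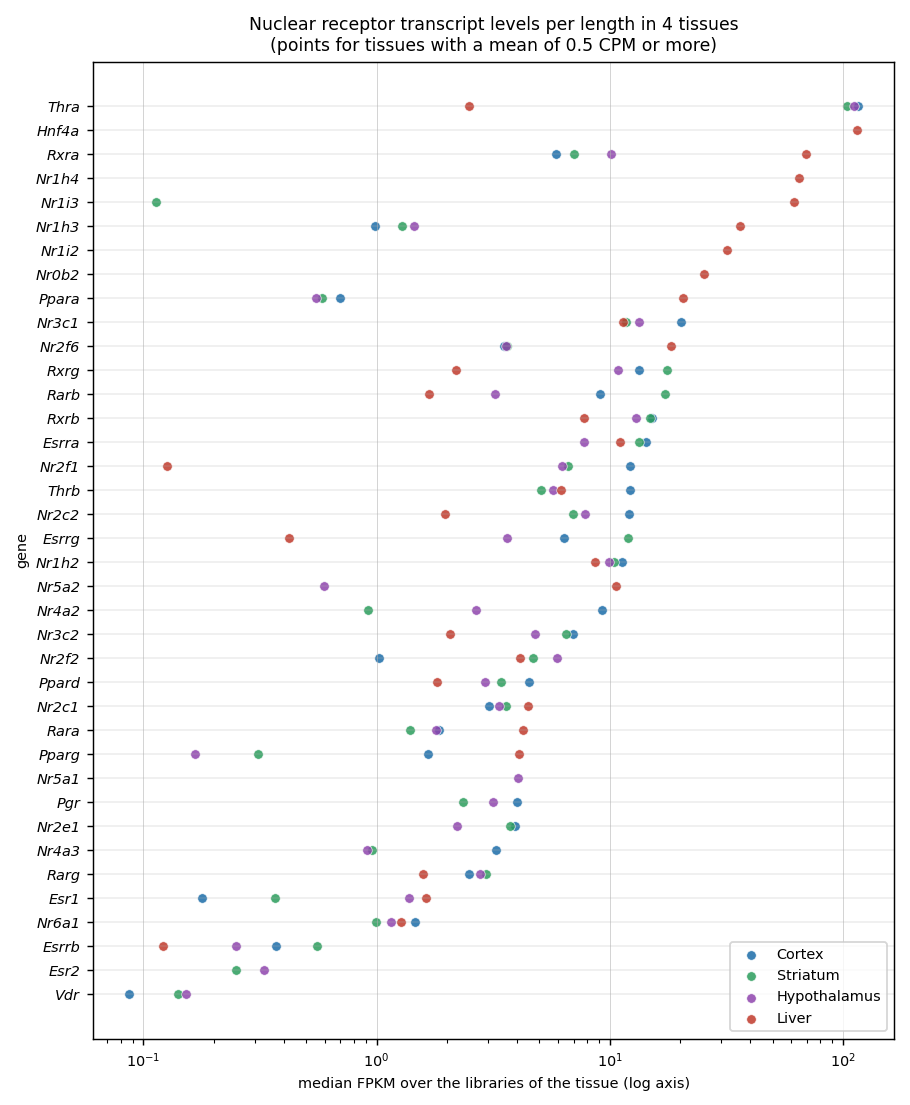
Median FPKM (authors' values, log axis) of each expressed receptor gene in each tissue, genes ordered by their highest tissue. Thra sits near 100 FPKM in the 3 brain regions and at 2.50 in liver, while Hnf4a, Nr1h4, Nr1i2 and Nr0b2 have a liver point alone.

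The main question of the design was which genes follow a 24 h course. A member was called rhythmic at an adjusted p under 0.05 for a 24 h cosine in edgeR's quasi-likelihood test, with Benjamini-Hochberg adjustment over all genes of the tissue. In liver 27 of 31 expressed members were called, beside 72.8% of all genes tested. In cortex 14 of 30 were called (all genes 43.7%), in hypothalamus 11 of 33 (24.3%) and in striatum 1 of 32 (5.70%). Without the libraries that stood apart the counts were 27, 18, 12 and 1. With the ZT group as a factor in place of the cosine, 28 members were called in liver, 9 in cortex and 4 in hypothalamus, and on the first cycle alone 2 in hypothalamus. The size of a rhythm is given as the ratio of the fitted curve's peak to its trough. At 1.5-fold and above, 11 liver members (all genes 27.9%), 1 cortex member (7.98%), 1 striatum member (3.09%) and no hypothalamus member (4.59%) were called. At 2-fold and above there were 5 in liver (11.1%).

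The median fitted ratio over the expressed members was 1.39-fold in liver beside 1.30-fold over all genes tested, 1.16 beside 1.14 in cortex, 1.19 beside 1.18 in striatum and 1.12 beside 1.12 in hypothalamus. A fitted ratio lies above 1 for noise too. Peaks fell between ZT12 and ZT24, the dark phase by convention, for 12 of the 14 called members in cortex (46.9% of all called genes) and 9 of 11 in hypothalamus (46.7%). In liver they were spread, with 13 of 27 between ZT12 and ZT24 (48.0%). The groups ZT15, ZT18 and ZT21 came from the first cycle alone, so peaks in the dark phase were not sampled on another night. On the first cycle alone 12 members were called in cortex, 9 of them among the 14. Markers of other cell types were called in cortex too, beside 43.7% of all genes, with peaks before and after ZT12. Of the choroid plexus markers 3 of 4 were called, all with peaks between ZT12 and ZT24 and at 1.5-fold and above. The choroid plexus sum ran from 1.55 to 239 CPM over the cortex libraries, with a median of 7.33. Called markers of oligodendrocytes (2 of 4), microglia (2 of 4) and astrocytes (1 of 4) peaked before ZT12. Of the 3 called brain endothelium markers 2 did so. What part such cells have in the receptor rhythms was not tested. Called in 3 tissues were Nr1h3, Nr2f6, Ppara, Rarg and Rxra (cortex, hypothalamus and liver) and Nr4a3 (the 3 brain regions). With the ZT group as a factor Nr1h3, Nr2f6 and Rarg lost their calls in cortex (adjusted p = 0.173, 0.0878 and 0.0535) and hypothalamus (0.258, 0.129 and 0.186), Rarg also in liver (0.102), and Ppara in both brain regions.

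**Figure D2:**
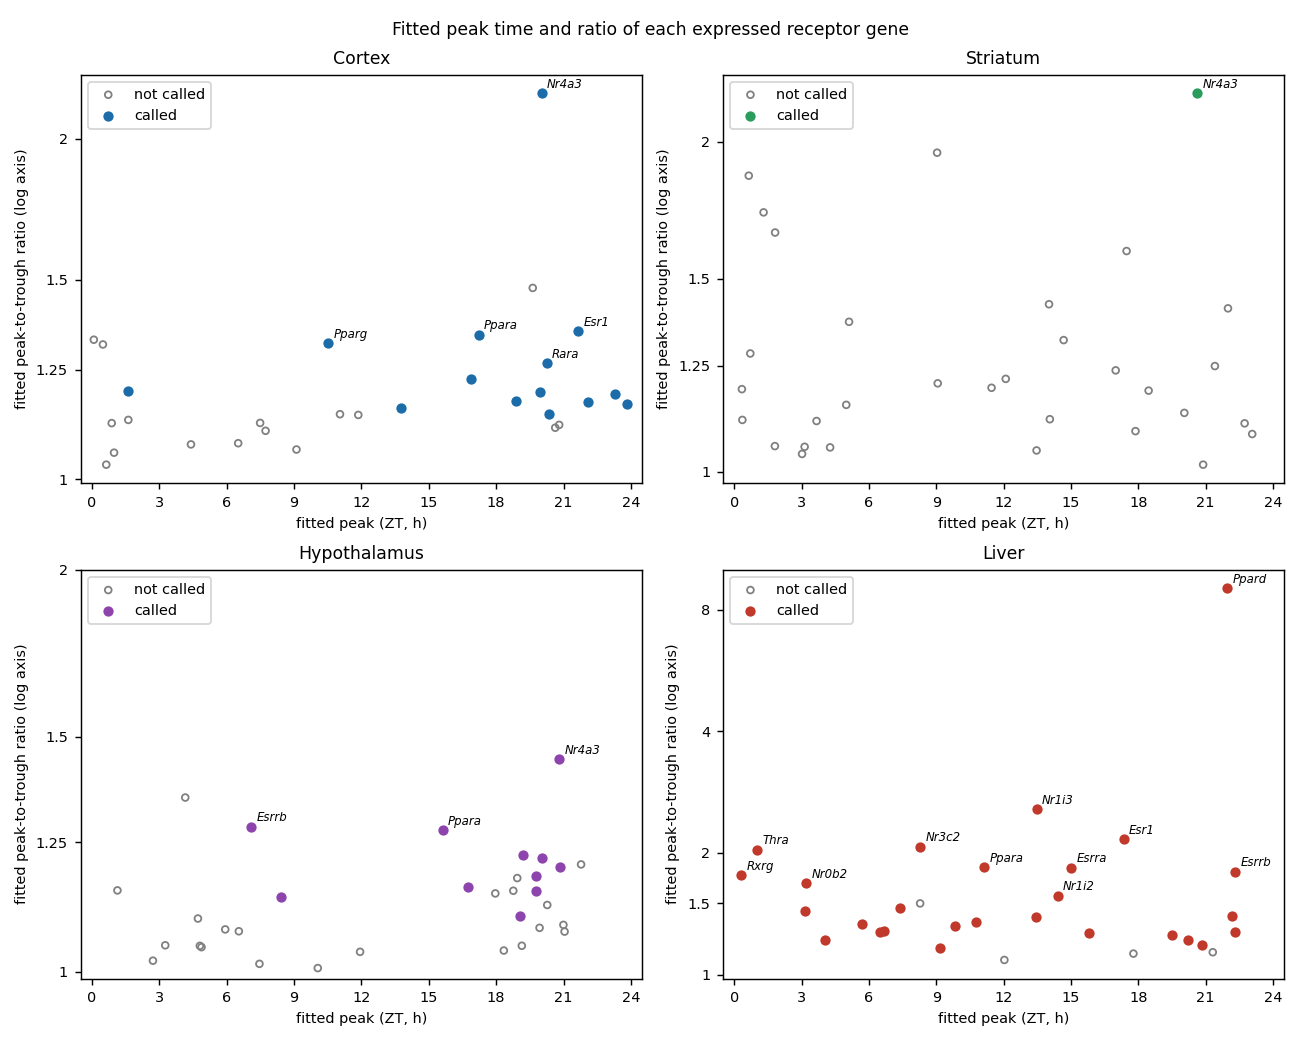
Fitted peak time (ZT, h) against fitted peak-to-trough ratio (log axis) of each expressed member, 1 panel per tissue, filled where called and open where not. Most called members of cortex and hypothalamus lie to the right of ZT12, and Ppard in liver stands highest at 9.04-fold.

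Among the lipid and xenobiotic sensors of the liver all 8 members were called (all genes 72.8%). Ppard (ENSMUSG00000002250, GRCm38 chromosome 17, 28232700 to 28301474, plus strand), a fatty acid receptor, had the largest ratio of any member. Its level at ZT0 ran from 34.8 to 64.6 CPM with a median of 50.9 (49.9 ± 9.59, SD, n = 12), and at ZT9 from 4.73 to 6.92 with a median of 5.30 (5.62 ± 0.781, SD, n = 11). All ZT0 libraries lay far above all ZT9 libraries. The fitted ratio was 9.04-fold (log2 3.18 ± 0.18, SE; adjusted p = 5.38e-28) with a peak at ZT21.9. The second cycle was sampled at ZT0 to ZT12 alone, so the fitted peak time was not sampled again. Ppard kept its levels at 2 times of day that were: the mean was 51.0 ± 6.53 CPM (SD, n = 6) at 0 h and 48.9 ± 12.5 at 24 h, and 5.78 ± 1.19 at 6 h and 5.58 ± 0.464 at 30 h.

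Nr1i3, the constitutive androstane receptor, which induces drug-metabolising enzymes, was high at ZT12 (241 to 656 CPM, median 459; 464 ± 118, SD, n = 12) and low at ZT3 (146 to 219, median 166; 172 ± 23.5, n = 12). These groups did not overlap, and the ratio was 2.57-fold (log2 1.36 ± 0.14; adjusted p = 3.98e-13) with a peak at ZT13.5. Of its exonic bases 74.9% are shared with Tomm40l on the opposite strand, so its counts are uncertain. In liver Tomm40l had a mean of 12.4 CPM beside 309 for Nr1i3, and peaked at ZT0.773 with a ratio of 1.44-fold. Nr1i2, the pregnane X receptor, which shares many target genes with Nr1i3, peaked close by at ZT14.4. It ran from 98.3 to 148 CPM (median 109.9, n = 12) at ZT12 and from 60.6 to 87.3 (median 69.0, n = 12) at ZT3, with no overlap (ratio 1.57-fold, log2 0.65 ± 0.07; adjusted p = 1.97e-12).

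Ppara, the receptor that switches on fatty acid oxidation in fasting, was highest at ZT9 (92.4 to 187 CPM, median 122, n = 11) and lowest at ZT0 (46.9 to 82.0, median 61.1, n = 12). The groups stood apart, and the ratio was 1.84-fold (log2 0.88 ± 0.12; adjusted p = 7.52e-09) with a peak at ZT11.1. Ppara and Ppard thus peaked at different times of day. The remaining sensors moved less. The bile acid receptor Nr1h4 had a ratio of 1.39-fold with a peak at ZT13.4 (adjusted p = 2.06e-07), the oxysterol receptor Nr1h2 1.33-fold at ZT5.68 (adjusted p = 1.13e-07), Pparg 1.32-fold at ZT9.83 (adjusted p = 0.0067) and the oxysterol receptor Nr1h3 1.22-fold at ZT20.2 (adjusted p = 7.62e-09).

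**Figure D3:**
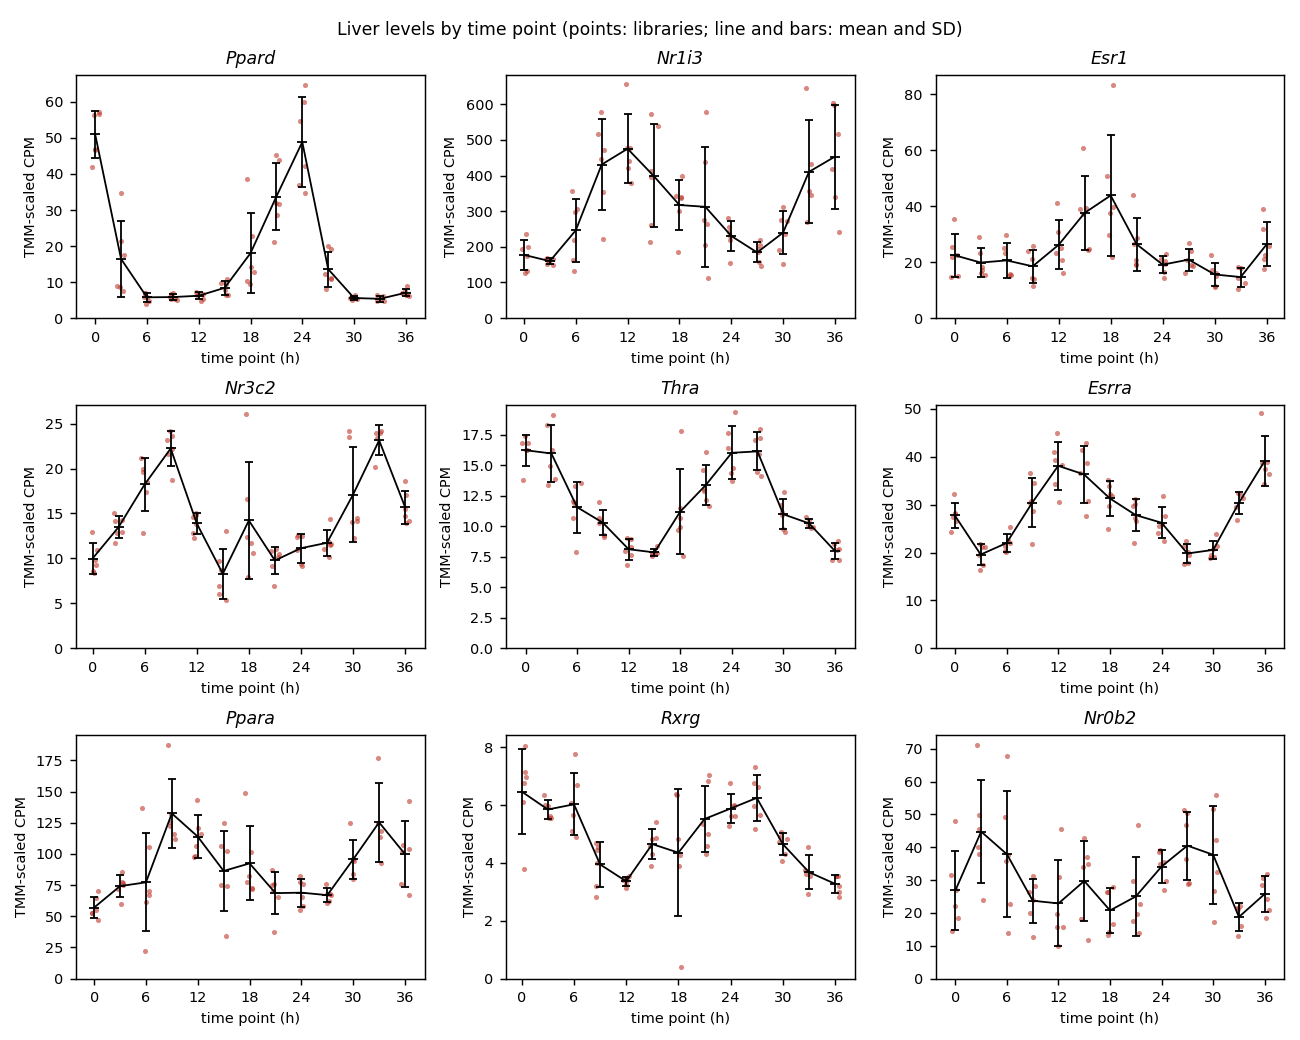
TMM-scaled CPM of 9 receptor genes in single liver libraries (points) by time point over 36 h, with mean and SD. Ppard is near 50 at 0 and 24 h and near 6 at 6 and 30 h, Nr3c2 and Ppara are highest at 9 and 33 h, and at 18 h 1 library lies far from the others for Esr1, Nr3c2, Thra and Rxrg.

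Of the 3 steroid receptors expressed in liver 2 were called (all genes 72.8%), each with a ratio above 2-fold. Esr1, the oestrogen receptor alpha gene (chromosome 10, 4611593 to 5005614), ran from 21.96 to 83.3 CPM at ZT18 (median 38.6; 43.8 ± 21.6, SD, n = 6) and from 10.3 to 25.8 at ZT9 (median 14.4; 16.8 ± 5.11, n = 11). The groups overlapped, with 5 of the 6 ZT18 libraries above every ZT9 library. The ratio was 2.17-fold (log2 1.11 ± 0.15; adjusted p = 2.33e-09) and the peak ZT17.3. The highest ZT18 value belongs to the library that stood apart, without which that group was at 35.9 ± 10.8 CPM (n = 5) and the log2 ratio 1.01. Nr3c2, the mineralocorticoid receptor, was high at ZT9 (18.7 to 24.2 CPM, median 23.4, n = 11) and low at ZT15 (5.32 to 12.9998, median 7.83, n = 6), with no overlap. Its ratio was 2.07-fold (log2 1.05 ± 0.12; adjusted p = 5.07e-12) with a peak at ZT8.29. For Nr3c1, the glucocorticoid receptor, the fitted ratio was 1.09-fold and the adjusted p 0.155, and 0.0461 with the ZT group as a factor.

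Of the oestrogen-related receptors, which drive genes of mitochondrial metabolism, Esrra and Esrrb were called in liver. Esrra ran from 30.6 to 49.2 CPM at ZT12 (median 38.5, n = 12) and from 16.5 to 22.4 at ZT3 (median 19.8, n = 12), groups that did not touch. Its ratio was 1.84-fold (log2 0.88 ± 0.07; adjusted p = 3.83e-18) with a peak at ZT15.0. Esrrb was read near the detection limit, from 0.604 to 2.54 CPM at ZT21 (median 0.935, n = 6) and from 0.295 to 0.798 at ZT9 (median 0.514, n = 11), with overlap. Its ratio was 1.80-fold (log2 0.84 ± 0.16; adjusted p = 1.27e-05). Esrrg had a log2 ratio of 0.58 ± 0.23 at an adjusted p of 0.0599, and without the library that stood apart it was called (adjusted p = 0.0182), as with the ZT group as a factor (0.0109).

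Of the thyroid hormone receptor genes Thra was called in liver by the cosine. It ran from 13.7 to 19.3 CPM at ZT0 (median 16.3; 16.1 ± 1.70, SD, n = 12) and from 7.59 to 8.41 at ZT15 (median 7.79; 7.86 ± 0.284, n = 6), with no overlap. The ratio was 2.04-fold (log2 1.03 ± 0.06; adjusted p = 1.07e-25), with a peak at ZT1.01. Of its exonic bases 5.70% are shared with the clock gene Nr1d1 on the opposite strand, which peaked in liver at ZT7.22 with a ratio of 79.8-fold, at 168 ± 30.5 CPM at ZT6 (SD, n = 12). Thrb, known as the main thyroid hormone receptor of hepatocytes, had a ratio of 1.14-fold (adjusted p = 0.0642), and was called with the ZT group as a factor (adjusted p = 0.000344). Of the retinoic acid receptors Rarb (1.28-fold, peak ZT22.3) and Rarg (1.19-fold, ZT20.8) were called, and Rara had a ratio of 1.13-fold (adjusted p = 0.307).

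All 3 retinoid X receptors were called in liver (all genes 72.8%), at different hours. Rxrg was at 3.78 to 8.05 CPM at ZT0 (median 6.06, n = 12) and at 2.83 to 3.56 at ZT12 (median 3.397, n = 12), without overlap. Its ratio was 1.76-fold (log2 0.82 ± 0.09; adjusted p = 2.02e-12) with a peak at ZT0.300. Rxra, at a mean of 371 CPM, had a ratio of 1.35-fold with a peak at ZT10.8 (adjusted p = 1.63e-09), and Rxrb 1.16-fold at ZT9.15 (4.3e-05).

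The orphan receptors of hepatic gene control were all called in liver (all genes 72.8%). Nr0b2, a small receptor without a DNA-binding domain that represses other nuclear receptors, ran from 24.0 to 71.2 CPM at ZT3 (median 42.9, n = 12) and from 13.2 to 27.9 at ZT18 (median 21.4, n = 6). At ZT3 11 of 12 libraries exceeded every ZT18 library, and 3 of 6 ZT18 libraries exceeded the lowest of ZT3, so the groups overlapped. The ratio was 1.68-fold (log2 0.75 ± 0.19; adjusted p = 0.00068) and the peak ZT3.21. Hnf4a, the highest receptor of the liver, had a ratio of 1.26-fold with a peak at ZT15.8 (adjusted p = 4.25e-05), and Nr5a2, a regulator of bile acid synthesis, 1.22-fold at ZT4.05 (0.00115).

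Of the COUP-TF, testicular and germ cell orphan receptors, 6 of 6 expressed in liver were called (all genes 72.8%), with ratios from 1.254-fold to 1.46-fold. Nr2c2 had the largest. It ran from 29.4 to 39.0 CPM at ZT9 (median 32.8, n = 11) and from 16.3 to 24.9 at ZT15 (median 19.1, n = 6), without overlap (log2 0.55 ± 0.08; adjusted p = 7.31e-08; peak ZT7.40). Nr2f6 had a ratio of 1.40-fold with a peak at ZT22.2 (adjusted p = 1.47e-09). Exonic bases are shared on the opposite strand by 31.2% of Nr2c2, mainly with Mrps25, and by 54.4% of Nr2f6, with Ocel1, so both are uncertain. Nr2f1, at a mean of 0.614 CPM, was called at an adjusted p of 0.0341 and lost its call without the library that stood apart (adjusted p = 0.0578).

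Markers of other liver cells were called too, beside 72.8% of all liver genes tested. All 4 Kupffer cell markers (Clec4f, Adgre1, Cd5l, Vsig4) were called, each with a peak between ZT0 and ZT12, and their sum had a mean of 139.8 CPM at ZT3 and 83.8 at ZT18. Over the liver libraries it ran from 47.4 to 277 CPM. Called too were 3 of 4 stellate cell and 3 of 3 liver endothelial markers, with sums of 147 to 297 and 60.2 to 176 CPM. Of the hepatocyte markers 2 of 4 were called, with a sum of 64481 to 126664 CPM. What part such shifts have in the receptor rhythms was not tested.

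Sequences upstream of the start site were taken from RefSeq (GRCm38.p6), where 36 of the 40 members had an entry that was used. The 250 bases before each start were searched for the E-box CACGTG, a site type of clock activators, and for the hexamer AGGTCA on both strands. The E-box is present in 6.02% of 32851 windows of all genes and the hexamer in 14.02%. Shown are the windows of the member with the largest ratio in liver, of both rhythmic liver members with an E-box and a ratio of 1.5-fold or more, and of the rhythmic Rxrg, whose window holds the hexamer. Each runs 5′ to 3′ on the gene's strand and ends at the base before the start, with matches in capitals.
Ppard, chr17:28232504-28232753, plus strand: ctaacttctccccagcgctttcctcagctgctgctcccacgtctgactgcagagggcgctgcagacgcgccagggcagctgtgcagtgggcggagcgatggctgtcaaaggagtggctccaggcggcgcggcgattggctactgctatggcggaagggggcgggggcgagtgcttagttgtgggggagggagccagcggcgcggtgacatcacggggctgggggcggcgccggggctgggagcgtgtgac
Nr1i3, chr1:171213720-171213969, plus strand: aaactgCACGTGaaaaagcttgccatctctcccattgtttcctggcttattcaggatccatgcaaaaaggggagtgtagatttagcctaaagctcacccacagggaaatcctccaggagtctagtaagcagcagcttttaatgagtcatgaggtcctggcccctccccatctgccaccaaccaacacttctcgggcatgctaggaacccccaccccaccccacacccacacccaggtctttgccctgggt
Nr0b2, chr4:133553126-133553375, plus strand: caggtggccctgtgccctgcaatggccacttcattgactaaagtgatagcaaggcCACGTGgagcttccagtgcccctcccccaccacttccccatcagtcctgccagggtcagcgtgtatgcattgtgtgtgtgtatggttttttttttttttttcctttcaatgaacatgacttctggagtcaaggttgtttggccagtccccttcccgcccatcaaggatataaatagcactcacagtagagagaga
Rxrg, chr1:167618015-167618264, plus strand: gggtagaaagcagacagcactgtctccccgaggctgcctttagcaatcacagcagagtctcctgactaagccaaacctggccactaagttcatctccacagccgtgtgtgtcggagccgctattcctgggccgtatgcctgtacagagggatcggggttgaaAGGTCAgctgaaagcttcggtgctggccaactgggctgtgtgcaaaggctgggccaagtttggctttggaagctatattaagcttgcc

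The E-box of Nr1i3 begins 244 bases and that of Nr0b2 195 bases before the start. These members peaked at ZT13.5 and ZT3.21. The hexamer of Rxrg begins 88 bases before 1 of its 2 listed starts. The Ppard window holds neither string. Of the 56 windows of all members 5 hold the E-box (8.93%) and 9 the hexamer (16.1%). Among the other members, the E-box was found for Esr2 and for some but not all listed starts of Rara and Thrb. The hexamer was found for Nr1h4 and for some but not all starts of Nr5a2, Nr6a1, Pparg, Rarg, Rxra and Thrb. A match describes the letters alone.

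Genes around the receptors were followed in liver through lists of coregulators, ligand metabolism and known targets, beside 72.8% of all genes called and a median log2 ratio of 0.38. Of 14 PPAR alpha targets 10 were called, with a median log2 ratio of 0.54. Pdk4, which spares glucose by blocking pyruvate dehydrogenase, had a ratio of 11.2-fold with a peak at ZT23.0, near that of Ppard. Cpt1a, which admits fatty acids to mitochondria, had 2.39-fold at ZT10.6, and the lipase inhibitor Angptl4 2.74-fold at ZT11.5, near that of Ppara. The lipid droplet gene Plin2 had 1.94-fold at ZT3.05, near neither of these receptor peaks. Whether the times of targets depend on those of receptors was not tested.

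Among the targets of Nr1i3 and Nr1i2, 9 of 11 were called (median log2 ratio 0.46). Alas1, the first enzyme of haem synthesis, had a ratio of 8.35-fold with a peak at ZT14.8, the drug transporters Slco1a4 2.69-fold at ZT10.1 and Abcc2 1.79-fold at ZT9.70, and Cyp2c55 3.01-fold at ZT4.37. Cyp2b10, a classical target of Nr1i3 that was named after its values were seen, had a mean of 1.49 CPM and a ratio of 1.84-fold at an adjusted p of 0.150. Of the oxysterol receptor targets 7 of 9 were called (median 0.40). The sterol exporters Abcg5 and Abcg8 had ratios of 3.30-fold and 3.49-fold with peaks at ZT9.89 and ZT8.56, and Cyp7a1, the rate-limiting enzyme of bile acid synthesis, 2.53-fold at ZT15.9.

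For the bile acid receptor 5 of its 6 listed targets were tested and all 5 called (median 0.48). Abcb11, the bile salt export pump, had a ratio of 2.75-fold with a peak at ZT1.85. Of the HNF4A targets 5 of 8 were called, with a median of 0.19, under that of all genes. Cyp8b1, a bile acid enzyme, had 1.69-fold at ZT0.660. Of the 5 thyroid hormone targets 4 were called (median 0.94), among them the lipogenic gene Thrsp (5.42-fold, ZT15.8), the corepressor Hr (5.06-fold, ZT22.2), the deiodinase Dio1 (1.91-fold, ZT14.2) and the transcription factor Klf9 (1.89-fold, ZT7.49). Of the 7 retinoic acid targets 5 were tested and 4 called (median 1.09). The retinal reductase Dhrs3 (2.13-fold, ZT0.913), Tgm2 (2.06-fold, ZT23.9) and the retinoic acid hydroxylases Cyp26a1 (2.36-fold, ZT21.3) and Cyp26b1 (2.26-fold, ZT20.5) were these. Cpt1a, Alas1, Klf9 and others on these lists answer to further regulators as well.

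Of the 16 coregulators 11 were called in liver (median 0.26) and 11 in cortex (all genes 43.7%; median 0.15, all genes 0.19). In liver the coactivator Ppargc1b had a ratio of 2.35-fold with a peak at ZT9.15 and Nrip1, a ligand-dependent corepressor, 1.99-fold at ZT21.8. In cortex the coactivators Ep300 (1.23-fold, ZT19.0), Ncoa3 (1.23-fold, ZT19.8) and Med1 (1.16-fold, ZT19.2) were close in time, and 9 of the 11 called had a peak between ZT12 and ZT24 (46.9% of all called genes). Of the 13 genes of ligand metabolism 9 were tested and 4 called in liver (all genes 72.8%), and 11 tested and 8 called in cortex (43.7%; median 0.26). In liver these were Cyp46a1, a cholesterol hydroxylase (2.93-fold, ZT11.7), Rdh10, which makes retinal (1.17-fold, ZT18.7), and the retinal dehydrogenases Aldh1a3 (2.06-fold, ZT11.3) and Aldh1a2 (1.93-fold, ZT5.98), both under 0.5 CPM. In cortex the deiodinases Dio2, which activates thyroid hormone, and Dio3, which inactivates it, had ratios of 1.41-fold at ZT20.3 and 2.35-fold at ZT21.3. Dio3 was read at a mean of 0.549 CPM.

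In the brain the activity-induced orphan receptor Nr4a3 (chromosome 4, 48045153 to 48086447) had the largest ratio in each region. In cortex it ran from 16.8 to 45.4 CPM at ZT0 (median 37.5; 36.0 ± 7.04, SD, n = 12) and from 10.4 to 20.6 at ZT3 (median 16.2; 15.8 ± 3.35, n = 12). The lowest ZT0 value came from the library that stood apart, and the other 11 lay above every ZT3 library. The ratio was 2.19-fold (log2 1.13 ± 0.17; adjusted p = 4.19e-07) with a peak at ZT20.0. The step down after ZT0 was seen in both cycles: the mean was 35.7 ± 9.89 CPM (SD, n = 6) at 0 h and 17.1 ± 3.02 at 3 h, and 36.2 ± 3.30 at 24 h and 14.5 ± 3.41 at 27 h.

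In hypothalamus Nr4a3 ran from 6.14 to 9.17 CPM at ZT0 (median 8.03, n = 12) and from 3.76 to 7.16 at ZT12 (median 4.47, n = 12). These groups overlapped, with 8 of 12 ZT0 libraries above all of ZT12, and the ratio was 1.44-fold (log2 0.53 ± 0.10; adjusted p = 0.000192; peak ZT20.8). On the first cycle alone its adjusted p was 0.0881. In striatum, where it was the only member called, its ZT18 libraries had 3.97, 8.88, 10.4 and 22.1 CPM, and the 11 at ZT6 ran from 3.28 to 9.45 (median 4.73). The ZT18 libraries were widely spread and overlapped with ZT6. The ratio was 2.21-fold (log2 1.15 ± 0.22; adjusted p = 0.000338; peak ZT20.6). Its relative Nr4a2 had a ratio of 1.48-fold in cortex (adjusted p = 0.160), 1.86-fold in striatum (0.331) and 1.20-fold in hypothalamus (0.477).

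**Figure D4:**
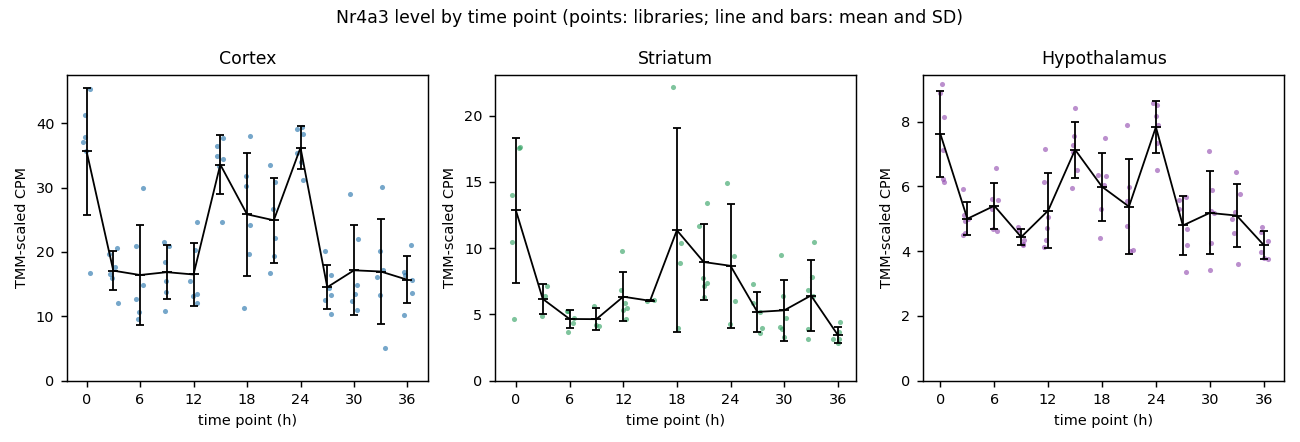
TMM-scaled CPM of Nr4a3 in single libraries (points) of 3 brain regions by time point, with mean and SD. In cortex and hypothalamus the means are high at 0, 15 and 24 h, and in striatum the libraries at 0 and 18 h are spread.

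The cortex members next in size had ratios from 1.27-fold to 1.35-fold. Esr1 ran from 2.67 to 3.45 CPM at ZT21 (median 3.05, n = 6) and from 1.29 to 2.86 at ZT15 (median 1.84, n = 6), with overlap (ratio 1.35-fold, log2 0.43 ± 0.13; adjusted p = 0.00982; peak ZT21.6). Ppara ran from 2.08 to 3.41 CPM at ZT15 (median 3.20, n = 6) and from 1.68 to 2.77 at ZT3 (median 2.17, n = 12), with 1 library of ZT15 in the range of ZT3. Its ratio was 1.34-fold (log2 0.42 ± 0.13; adjusted p = 0.0164) with a peak at ZT17.2. Outside these groups, the lowest cortex library for Ppara was at 0.0323 CPM, beside a median of 2.67. That library was not among those that stood apart. Pparg, the adipocyte receptor, peaked at ZT10.5 and was, with Rarg (ZT1.59), 1 of 2 called cortex members with a peak before ZT12. Its ratio was 1.32-fold (log2 0.40 ± 0.13; adjusted p = 0.0322). It ran from 5.02 to 6.86 CPM at ZT15 (median 6.58, n = 6) and, without the library that stood apart, from 3.27 to 5.42 at ZT0 (median 4.37, n = 11).

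Rara had a ratio of 1.27-fold in cortex (log2 0.34 ± 0.12; adjusted p = 0.0467; peak ZT20.2), with 9.10 to 14.9 CPM at ZT15 (median 10.4, n = 6) and 5.53 to 12.3 at ZT3 (median 7.37, n = 12), which overlapped. This call was lost without the low-count filter (adjusted p = 0.0654), with a covariate for the second cycle (0.113) and on the first cycle alone (0.495). The glucocorticoid receptor Nr3c1 was called in cortex at 1.17-fold (peak ZT18.9; adjusted p = 0.00159), and the progesterone receptor Pgr at 1.23-fold (peak ZT16.9; adjusted p = 0.000932). In hypothalamus the named members were Esrrb (1.28-fold, log2 0.36 ± 0.11; adjusted p = 0.0229; peak ZT7.07) and Ppara (1.28-fold, log2 0.35 ± 0.10; adjusted p = 0.0172; peak ZT15.6). Esrrb ran from 1.29 to 2.28 CPM at ZT6 (median 1.66, n = 12) and from 0.912 to 1.55 at ZT15 (median 1.30, n = 6), and Ppara from 1.95 to 2.77 at ZT18 (median 2.31, n = 6) and from 1.29 to 2.40 at ZT3 (median 1.80, n = 12). Both pairs of groups overlapped. With the ZT group as a factor neither passed, at adjusted p of 0.225 for Esrrb and 0.286 for Ppara in hypothalamus, nor did Ppara (0.187) and Pparg (0.0741) in cortex. The cosine peak and the highest group can differ where a course is not a cosine.

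Whether a rhythm differed between tissues was tested through the interaction of tissue with the cosine and sine. Between cortex and liver 16 of 25 members expressed in both differed (all genes 63.6%), between hypothalamus and liver 16 of 26 (60.8%) and between striatum and liver 14 of 26 (42.0%). Without the libraries that stood apart the counts were 18, 17 and 16. With the mouse as a block 11 differed between striatum and liver (all genes 34.7%): Esrrb, Nr2f6 and Rxrb lost their calls, at adjusted p of 0.0544, 0.186 and 0.0996. Between hypothalamus and liver the block gave 16 (all genes 58.1%). Between cortex and liver it gave 16 as well (62.1%), with Esrrg lost (adjusted p = 0.104) and Nr2f2 gained (0.0319).

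Ppard, Thra and Esrra had the smallest p in each liver comparison. The fitted ratio of Ppard was 9.04-fold in liver and 1.19-fold (cortex), 1.08-fold (hypothalamus) and 1.05-fold (striatum) in brain, and the largest swing of the difference between the tissues was log2 2.96 against cortex (adjusted p = 2.44e-32). For Thra the ratios were 2.04-fold in liver and 1.07-fold, 1.02-fold and 1.04-fold in the same order (against cortex adjusted p = 5.76e-28). For Esrra they were 1.84-fold in liver and 1.11-fold, 1.18-fold and 1.05-fold (against cortex adjusted p = 4.92e-13). Members called in both tissues also differed. Ppara peaked at ZT11.1 in liver and at ZT17.2 in cortex and ZT15.6 in hypothalamus, and Rxra at ZT10.8 in liver and ZT20.3 in cortex. Nr1h3 and Rarg were called in cortex and liver, and their difference had an adjusted p of 0.0583 and 0.0768. Without the libraries that stood apart that of Nr1h3 was 0.014.

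Among the brain regions no member differed in rhythm in edgeR's test: 0 of 30 between cortex and striatum (all genes 0.501%; 2 at an unadjusted p under 0.05), 0 of 30 between cortex and hypothalamus (6.14%; 7) and 0 of 31 between striatum and hypothalamus (0.292%; 3). With the mouse as a block none differed between cortex and striatum (all genes 0.0465%) or striatum and hypothalamus (0.00%), and 2 members between cortex and hypothalamus (7.38%). These were Nr4a3 (adjusted p = 0.00161; 2.19-fold in cortex and 1.44-fold in hypothalamus, peaks ZT20.0 and ZT20.8) and Rarg (adjusted p = 0.0398; peaks ZT1.59 and ZT19.8). Without the libraries that stood apart 2 differed as well, Rarg and Nr2f1.

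Levels were compared between brain regions in 1 fit with the ZT group as a factor, and called at an adjusted p under 0.05 and a difference of 2-fold or more. This fit scaled the 3 regions together, while CPM is scaled within each tissue, so ratios of mean CPM can differ from the fitted differences. For Esrra the means were 35.4 CPM in cortex and 20.0 in hypothalamus, and the fitted difference was 2.01-fold. Between cortex and hypothalamus 13 of 33 members differed (all genes 21.1%), 8 higher in cortex (all genes 10%) and 5 in hypothalamus (11.1%). Between striatum and hypothalamus it was 10 of 34 (9.31%), 6 higher in striatum (5.37%) and 4 in hypothalamus (3.94%), and between cortex and striatum 8 of 32 (17%), 4 higher in cortex (6.29%) and 4 in striatum (10.7%). Some members entered a comparison only through the region where they are high: Nr5a1, Nr5a2 and Esr2 between cortex and hypothalamus, Nr5a1, Nr5a2 and Nr1i3 between striatum and hypothalamus, and Esr2 and Nr1i3 between cortex and striatum. Of members expressed in both regions 10 of 30, 7 of 31 and 7 of 30 were called in the same order. The shares above are over all genes tested, and no share was taken over genes expressed in both regions, so these counts have none beside them. Over all members tested, the counts without the libraries that stood apart were 12, 10 and 8. With the mouse as a block they were 12, 9 and 6, where Esrra, Rxrg, and Esr1 with Rarb lost their calls.

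The hypothalamus differed most in the steroidogenic factor Nr5a1 (chromosome 2, 38692656 to 38714542), which ran from 8.49 to 32.9 CPM (median 16.5, n = 77) beside 0 to 0.244 in cortex (median 0.067, n = 78) and 0 to 0.331 in striatum (median 0.031, n = 60). The hypothalamus stood wholly above both (log2 7.47 ± 0.11 and 7.90 ± 0.13). These are given as levels, with no test, as for the next gene. Its relative Nr5a2 ran from 0.789 to 5.22 CPM in hypothalamus (median 3.46), beside 0 to 0.190 in cortex and 0 to 0.542 in striatum, again without overlap (log2 6.75 ± 0.15 and 5.09 ± 0.14). Folds against such near-zero levels carry the counting error of a few reads. In liver Nr5a2 was at 39.1 to 82.9 CPM (median 61.4, n = 77).

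Oestrogen receptor genes and the COUP-TF gene Nr2f2 were higher below the cortex. Esr1 was at 19.7 ± 6.25 CPM in hypothalamus (SD, n = 77), 5.47 ± 3.16 in striatum (n = 60) and 2.43 ± 0.691 in cortex (n = 78). The cortex and hypothalamus libraries did not overlap (log2 2.84 ± 0.10; adjusted p = 8.42e-75). Striatum overlapped with both (hypothalamus minus striatum log2 1.71 ± 0.10, adjusted p = 1.14e-39; striatum minus cortex log2 1.13 ± 0.10, adjusted p = 5.12e-23, and 0.99 with the mouse as a block). The highest Esr1 values in hypothalamus, 52.0 and 51.3 CPM, were those of both libraries that stood apart there. Pituitary markers summed to 0.507 to 37463 CPM over the hypothalamus libraries. Esr2 was at 1.15 ± 0.366 CPM in hypothalamus, 0.924 ± 0.602 in striatum and 0.240 ± 0.114 in cortex (striatum minus cortex log2 1.89 ± 0.13, with no test). Nr2f2 was at 51.6 ± 6.07 CPM in hypothalamus, 41.3 ± 20.2 in striatum and 9.56 ± 3.38 in cortex (striatum over cortex log2 2.08 ± 0.09; adjusted p = 9.17e-61).

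Higher in cortex were Pparg and both NR4A genes. Pparg was at 5.22 ± 1.37 CPM in cortex, 1.02 ± 0.582 in striatum and 0.507 ± 0.148 in hypothalamus, with log2 differences from cortex of -3.53 ± 0.09 in hypothalamus (adjusted p = 2.28e-97) and -2.38 ± 0.09 in striatum (adjusted p = 1.72e-65). Without the libraries that stood apart the cortex (3.27 to 8.66) lay wholly above the hypothalamus (0.194 to 0.957). Nr4a2 was at 33.7 ± 13.7 CPM in cortex, 12.3 ± 4.82 in hypothalamus and 4.84 ± 6.76 in striatum (striatum minus cortex log2 -2.90 ± 0.15; adjusted p = 2.9e-48). The striatum library that stood apart at ZT3 had 52.1 CPM of Nr4a2, and the striatum libraries that did not stand apart 0.857 to 16.8 (median 3.65). Nr4a3 was at 22.1 ± 9.81 CPM in cortex, 6.95 ± 3.97 in striatum and 5.66 ± 1.45 in hypothalamus (striatum minus cortex log2 -1.65 ± 0.08, adjusted p = 6.88e-52; hypothalamus minus cortex log2 -2.09 ± 0.07, adjusted p = 6.75e-73).

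Rarb had its highest mean in striatum, at 62.7 ± 47.9 CPM (SD, n = 60) beside 28.4 ± 19.2 in cortex and 10.1 ± 2.25 in hypothalamus. Its libraries ran from 6.69 to 199 CPM and overlapped with both other regions. Striatum minus cortex was log2 1.10 ± 0.14 (adjusted p = 1.79e-12), and this call was lost with the mouse as a block. Hypothalamus minus striatum was log2 -2.76 ± 0.15 (adjusted p = 2.04e-43) and hypothalamus minus cortex log2 -1.66 ± 0.14 (adjusted p = 1.67e-24). Of the exonic bases of Rarb 38.4% are shared with other genes on the opposite strand, mainly Top2b. The oestrogen-related receptors Esrrg (69.6 ± 25.1 CPM beside 23.0 ± 5.33) and Esrrb (3.57 ± 2.37 beside 1.49 ± 0.329) were also higher in striatum than in hypothalamus (hypothalamus minus striatum log2 -1.75 ± 0.07 and -1.40 ± 0.10; adjusted p = 5.6e-67 and 7.88e-33).

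In both cortex libraries that stood apart, at ZT0 and at ZT9, Rarb was at 98.8 and 149 CPM (4.97 to 46.0 in the other cortex libraries), Nr4a2 at 1.74 and 1.57 (6.91 to 63.5) and Pparg at 0.858 and 0.992 (3.27 to 8.66).

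**Figure D5:**
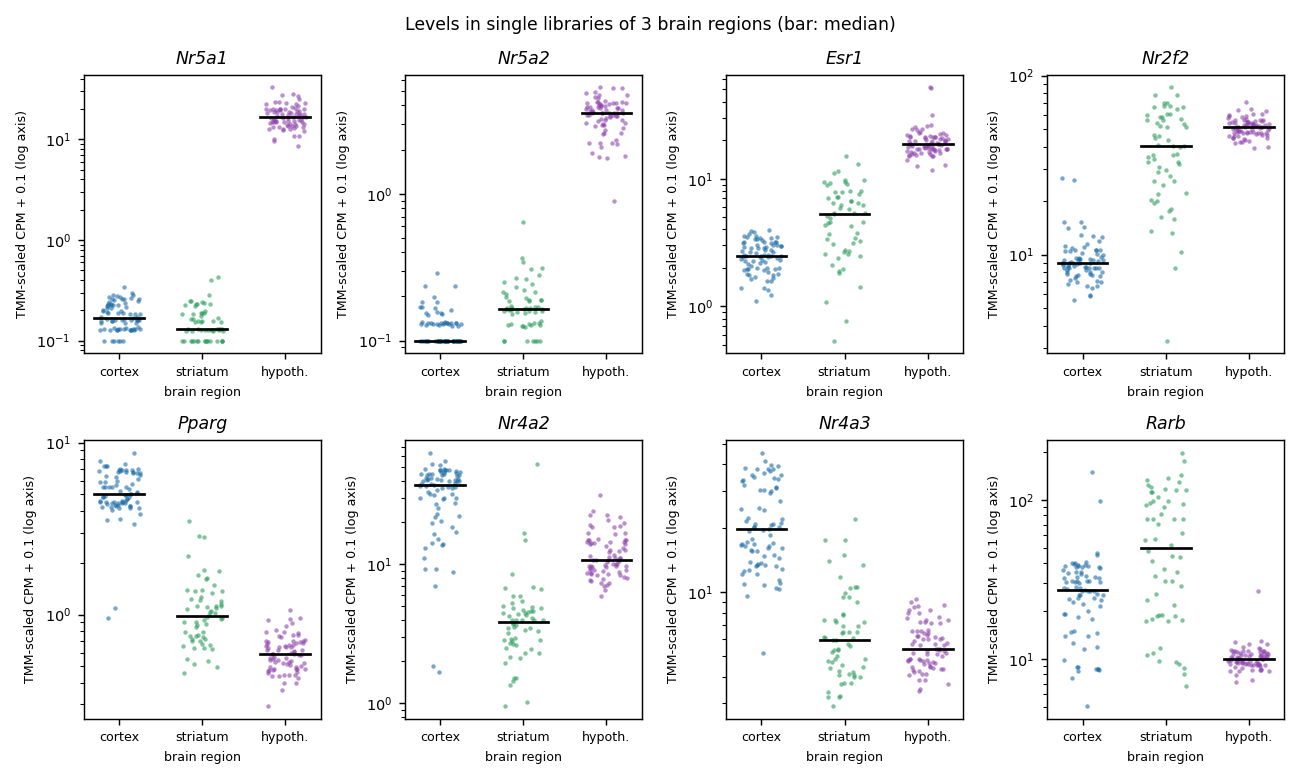
TMM-scaled CPM + 0.1 (log axis) of 8 receptor genes in single libraries of cortex, striatum and hypothalamus, with the median as a bar. Nr5a1 and Nr5a2 separate the hypothalamus from both other regions, and Rarb spreads from 6.69 to 199 CPM in striatum.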

How the data were processed

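Gene counts and FPKM values per library were made by the authors, who deposited both; HTSeq 0.10.0, STAR 2.7.3a and the builds mm10 and GRCm38 stand in the submitters' processing notes. Which annotation release was counted, and whether by strand, is not given in the sources used here. Deposited counts were tested with edgeR 4.0.16 (quasi-likelihood F test, TMM scaling, low-count filter by ZT group) in R 4.3.3, with 24 h cosine and sine terms per tissue. Benjamini-Hochberg adjustment ran over all genes of a fit, and each ± after a log2 value is an SE. The authors' FPKM served only to order genes. The mouse, or the replicate number, entered as a fixed block in edgeR as an alternative, and DESeq2 1.42.0 was another. Mouse codes in the labels pair libraries across tissues, since 58 codes occur in all 4 tissues. The code CR88 occurs in striatum alone, at 33 h, and CRM88 in the other tissues at that time. They were kept as different codes, so the mouse block left that striatum library out. Replicate numbers were not used to pair libraries within a tissue, where the labels give them no such meaning and the median correlation of same-numbered libraries was 0.008 for liver, 0.072 for cortex, 0.092 for hypothalamus and 0.039 for striatum.

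Members, gene lists and the 7 libraries treated as standing apart were chosen with earlier results of these data known. Named in each tissue were called members with a ratio of 1.25-fold or more, at most 12, and the highest and lowest by FPKM. Other named genes were the 3 smallest p per tissue pair, the 3 largest level differences each way per pair of brain regions, and the 4 smallest p of each called pathway list in liver (for coregulators and ligand metabolism in cortex too). One gene named by this rule and the values of some marker lists are not reported here. Remaining members are given by value where a role group is described. Positions come from GENCODE M21 (GRCm38). The script was tested on simulated data.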

Additional observations from a re-analysis of the deposited data

Results flagged for a closer look

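In 3 of 14 groups of 4 to 10 libraries tested, 1 library lay far from the others, which chance gives in about 1 in 20 groups. Ppara in cortex at ZT15 was at 2.08 CPM in replicate 2 (68 counts, 95% Wilson interval 1.64 to 2.63, counting error only) and at 2.98 to 3.41 in the other 5. Pparg in cortex at ZT15 was at 5.02 CPM in replicate 1 (151 counts, 4.28 to 5.89) and at 6.36 to 6.86 in the other 5. Thra in liver at ZT15 was at 8.41 CPM in replicate 1 (258 counts, 7.44 to 9.50) and at 7.59 to 7.83 in the other 5. For Thra the counting interval covers the values of the other 5.

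The rhythms of Ppard, Thra and Esrra differed between liver and each brain region by the interaction term of edgeR's quasi-likelihood test. Against cortex the adjusted p was 2.44e-32 for Ppard, 5.76e-28 for Thra and 4.92e-13 for Esrra. Against striatum it was 4.16e-27 for Ppard, 1.08e-14 for Thra and 1.43e-08 for Esrra. Against hypothalamus it was 1.55e-33 for Ppard, 9.48e-30 for Thra and 2.62e-11 for Esrra. All 3 had their larger ratio in liver.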

How the results depend on the processing

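Among counts of called genes 184 values under alternatives stayed within 1.5 times the main count and 17 did not, and none reversed direction. With the ZT group as a factor 9 members were called in cortex (14 with the cosine) and 4 in hypothalamus (11). A covariate for the second cycle gave 6 in hypothalamus, and the first cycle alone gave 2, where all genes gave 2155 calls (4967 on both cycles). In striatum DESeq2 size factors, a mean CPM filter and DESeq2's likelihood ratio test each gave 2 members (1 in the main test), and leaving out single replicates gave 1 to 2, with Nr1h3 joining Nr4a3 without ZT18 replicate 3. All striatum genes gave 326 calls on the first cycle alone (1233 on both). HNF4A targets called in liver numbered 3 on the first cycle alone, 2 with the replicate number as a block and 3 with the ZT factor (5 in the main test). Between cortex and striatum the rhythm of 1 member, Vdr, differed on the first cycle alone. Between cortex and hypothalamus it was 1 (Nr2f1) on the first cycle alone, 2 without the libraries that stood apart and 2 with the mouse as a block.

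The replicate number as a block gave 27 members in liver, 14 in hypothalamus, 13 in cortex and 1 in striatum, and 7138 of all hypothalamus genes. As a hint from the data, not the design, same-numbered hypothalamus libraries correlated above 0.1 in 107 of 224 pairs. Libraries correlated best with their own number in 12 of 77 liver, 22 of 77 hypothalamus, 13 of 78 cortex and 6 of 60 striatum cases. Of the ratios of single named genes 182 stayed on their side of the threshold and 13 lost their call. The level difference of Esr1 between cortex and striatum was log2 0.99 with the mouse as a block. Members near 0.5 CPM rest on few reads per library.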
